A study of Mus musculus with 10 samples.

Results

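The interferon-stimulated genes examined here are 36 mouse genes taken by symbol from the 45582 distinct symbols of a table of jejunal gene expression. The list was drawn up with earlier results of these data known. They filled 37 of its 45707 rows, because Gbp6 was listed under 2 identifiers. The study asked whether the yeast enzyme NDI1 in the intestinal epithelium alters the transcriptome, and RNA was sequenced from 5 Vil-Cre and 5 Vil-Cre:NDI1 mice, with 1 library for each mouse. All animals were male littermates of 8 to 12 weeks, had fasted for 16 to 18 h and received water by gavage 1 h before the jejunum was taken, so the data describe the fasted, vehicle-treated state only. Both groups carried the Vil1-cre transgene B6.Cg-Tg(Vil1-cre)1000Gum/J, in which the villin promoter drives Cre in epithelial cells of the gut. The Vil-Cre:NDI1 mice also carried a lox-stop-lox NDI1 allele at ROSA26, whose product is a yeast NADH dehydrogenase made of 1 subunit. The tissue was whole jejunal wall flushed of its contents, so a lower level in a mouse can mean fewer cells of a type or less RNA per cell, and these cannot be told apart.

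Interferons are secreted proteins that signal through JAK kinases and STAT transcription factors. Genes that respond to type I and type III interferons often carry the interferon-stimulated response element (ISRE), bound by a complex that includes STAT2 and IRF9, whereas many genes that respond to interferon-gamma carry the gamma-activated site (GAS). In the gut, enterocytes respond to type III interferon in particular, and a low level of interferon-stimulated transcripts is present in healthy mice. The products sense viral nucleic acid, block viral replication, attack the vacuoles of intracellular pathogens or attract lymphocytes.

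The sequence just upstream of the genes is shown first, since both kinds of element are known from promoters of such genes. RefSeq promoter windows on GRCm38.p6, reaching from 250 bases before to 50 bases after the transcription start, were matched for 28 of the 36 genes, and the other genes, without a window here, were Oas2, Usp18, Gbp6, Iigp1, Ifi27, Dhx58, Zbp1 and Parp14. Each window was searched on both strands for the ISRE core GAAANNGAA and for the GAS letters TTCNNNGAA. The first 2 sequences below belong to genes that were highest in mouse Vil-Cre:NDI1 3, and the next 4 belong to genes that were highest in mouse Vil-Cre 5. They are examples chosen after the values were seen. The windows of Oasl2, Irf7, Irf9 and Xaf1, also highest in Vil-Cre:NDI1 3, held no match of either kind. Each sequence gives the 150 bases before the start, 5′ to 3′ in the direction of the gene, with ISRE core and GAS matches in capitals.
Isg15: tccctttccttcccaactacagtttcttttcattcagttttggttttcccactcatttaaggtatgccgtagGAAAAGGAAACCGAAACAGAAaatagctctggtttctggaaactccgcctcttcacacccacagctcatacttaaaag
Ifit1: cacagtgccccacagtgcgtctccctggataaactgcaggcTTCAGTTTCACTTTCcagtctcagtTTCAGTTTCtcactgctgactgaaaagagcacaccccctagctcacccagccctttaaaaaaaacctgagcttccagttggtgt
Igtp: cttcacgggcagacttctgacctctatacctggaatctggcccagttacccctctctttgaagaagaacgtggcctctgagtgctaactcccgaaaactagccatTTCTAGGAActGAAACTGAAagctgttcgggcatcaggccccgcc
Irgm2: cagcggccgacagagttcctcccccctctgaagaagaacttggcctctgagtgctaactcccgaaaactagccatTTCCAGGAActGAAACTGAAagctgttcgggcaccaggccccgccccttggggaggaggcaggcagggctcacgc
Gbp2: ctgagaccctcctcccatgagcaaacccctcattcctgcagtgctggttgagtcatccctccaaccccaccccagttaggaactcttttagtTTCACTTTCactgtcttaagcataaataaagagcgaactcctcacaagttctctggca
Irf1: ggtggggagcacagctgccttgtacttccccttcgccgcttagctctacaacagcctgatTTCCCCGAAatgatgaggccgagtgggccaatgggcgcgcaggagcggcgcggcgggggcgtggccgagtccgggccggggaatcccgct
These sequences lie at chr4:156200819-156200968 on the minus strand for Isg15, chr19:34640739-34640888 on the plus strand for Ifit1, chr11:58199406-58199555 on the plus strand for Igtp, chr11:58214827-58214976 on the plus strand for Irgm2, chr3:142620513-142620662 on the plus strand for Gbp2 and chr11:53769864-53770013 on the plus strand for Irf1.

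In the Isg15 sequence, 3 overlapping ISRE core matches began 78, 72 and 66 bases before the start. In Ifit1, the matches began 109, 103 and 84 bases before the start, and the first 2 of them overlap. Neither sequence held the GAS letters. The Igtp sequence held a GAS match 45 bases and an ISRE core match 34 bases before the start, and the Irgm2 sequence held the same pair 75 and 64 bases before the start. Igtp and Irgm2 are neighbouring genes of the same family, and when their sequences were aligned at the ISRE core, 103 of 120 bases (85.8%) were identical. Gbp2 held 1 ISRE core match, and Irf1 held a GAS match 90 bases before the start and no ISRE core.

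The ISRE core was found in the windows of 19 of 28 genes (67.9%), against 9.76% of the 27025 genes with a window and 8.56% of all 32851 windows. The GAS letters were found in 10 of 28 genes (35.7%), against 9.55% of genes and 8.30% of windows. All 6 interferon-inducible GTPases with a window held the ISRE core and 3 of them also the GAS letters. Of the 5 transcription factors, only Stat2 held the ISRE core, while Irf1 and Irf8 held the GAS letters. In 2 genes, matches of the 2 motifs shared a base. Among genes that were highest in mouse Vil-Cre 5, described further below, 8 of 11 held the ISRE core and 7 of 11 the GAS letters, compared with 8 of 12 and 1 of 12 among genes that were highest in Vil-Cre:NDI1 3. These gene groups were formed from measured values, so the counts are a description with no test, and a match of letters does not show that a factor binds there.

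The libraries held 10145705 to 12371530 reads assigned to genes. The deposited values are whole reads divided by 1 size factor for each library and are called normalized counts. The NDI1 transgene was read 0 times in 4 Vil-Cre mice and once in Vil-Cre 3, whereas its normalized count was 982, 1371, 2575, 1394 and 1511 in Vil-Cre:NDI1 mice 1 to 5. The groups did not overlap (two-sided exact permutation test, p = 0.00794, the smallest that 252 assignments allow), and each mouse matched its label. Enterocyte markers were abundant in every mouse, and none of the 12 was at 0 in any group. One library, Vil-Cre 5, stood apart from the rest in its marker genes, with the lowest summed level of enterocyte markers and the highest levels of B cell markers such as Cd79a, as detailed below. The counts of called genes, the spread between mice and several single-gene differences are therefore also given without it.

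Levels of the interferon-stimulated genes spanned a wide range in the fasted jejunum. The level was set between genes as the normalized count per kb of annotated exon, and 15 of the 36 genes averaged above 100 per kb. Ifi35, an interferon-induced protein that acts in innate signalling, stood highest at 605 ± 70.7 per kb (SD, n = 10 mice). The transcription factor Irf1 followed at 398 ± 88.6, then the antiviral membrane protein Ifitm3 at 307 ± 58.8, the transcription factor Irf7 at 305 ± 92.0 and Ifi27 at 282 ± 57.1. The lowest mouse for Ifi35 (485 per kb) exceeded the highest mouse for Ifitm3 (375), Irf7 (472) and Ifi27 (362), while its range met those of Irf1 (256 to 568) and of the GTPase Igtp (up to 502). Ifitm3, Irf7 and Ifi27 did not differ beyond their spread between mice. Among the GTPases, Igtp was highest at 224 ± 135 per kb and Iigp1 lowest at 12.3 ± 5.99.

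The lowest levels belonged to the chemokines and to Ifi44. Cxcl9 and Cxcl10, which draw activated T cells through the receptor CXCR3, averaged 9.07 ± 12.1 and 3.33 ± 1.84 per kb, and Ifi44, an interferon-induced cytoplasmic protein, averaged 3.71 ± 2.37. Ifi35 overlaps the antisense transcript Gm11626 over 290 bases of exon (16.8%), and whether reads were counted by strand is not given in the sources used here, so its level is uncertain. Oas1a and Oas1g, as well as Ifit3 and Ifit3b, are close paralogs among which reads may be split. Igtp and Irgm2 share 162 bases of exon on the same strand (8.01% of Igtp and 4.39% of Irgm2), so their reads may be split too.

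**Figure D1:**
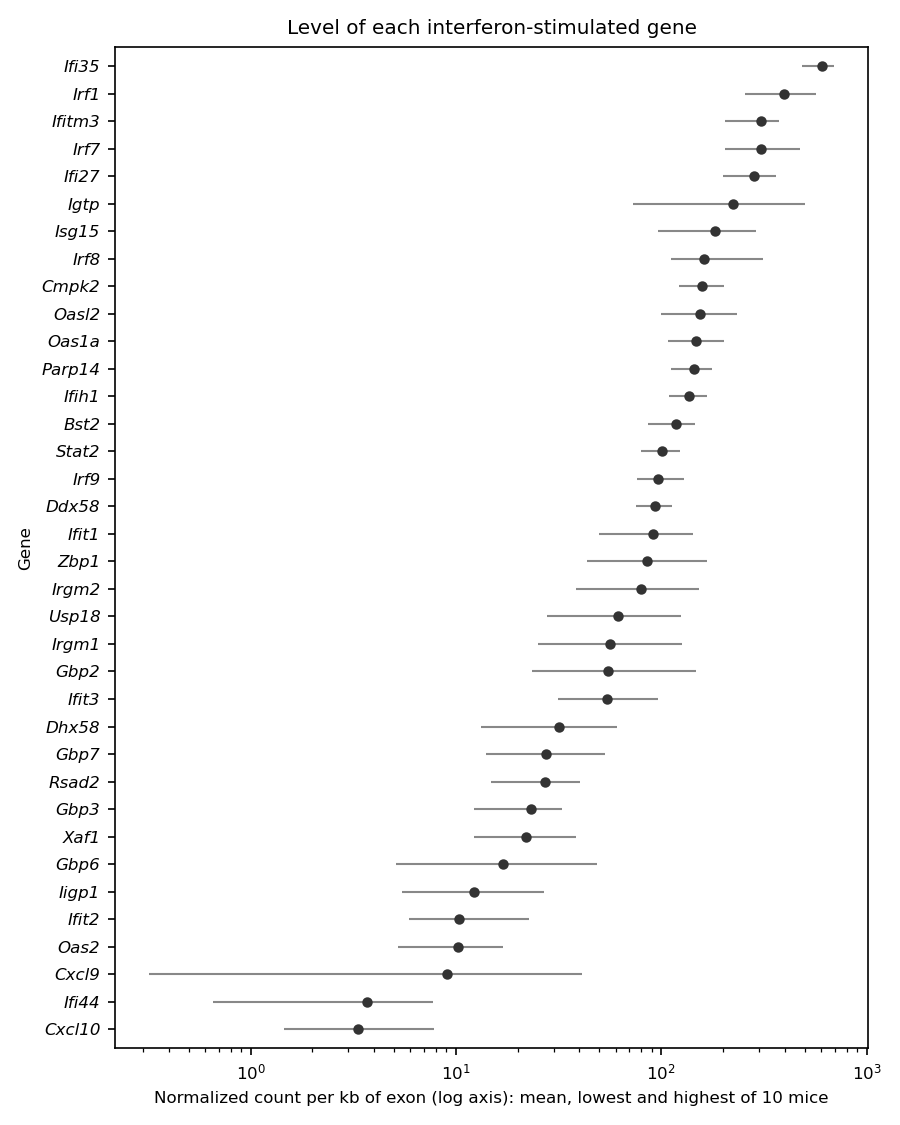
Level of each of the 36 interferon-stimulated genes as normalized count per kb of exon on a log axis, with the mean (point) and the lowest and highest of 10 mice (line). Ifi35 stands at 605 per kb and Cxcl10 at 3.33. The lines are longest for Cxcl9 and Ifi44, followed by the GTPases Gbp6, Igtp and Gbp2.

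No interferon-stimulated gene passed the test between Vil-Cre:NDI1 and Vil-Cre mice. Of the 36 genes, 35 passed the filter on low values, which kept genes that reached 10 normalized counts in 5 or more mice. None was past the adjusted threshold of 0.05 by limma, a linear model fitted to log2(normalized count + 1) of all 14301 genes tested, in which 1 gene (0.00699%) was called, NDI1 itself. At an unadjusted p under 0.05 the count was also 0 of 35, against 4.24% of all genes, and no gene had groups that did not overlap, against 0.699% of all genes. Run on the reads, DESeq2 called 0 of these genes (31 of 16976 over all genes, 0.183%) with 1 at an unadjusted p under 0.05, and edgeR called 0 (0.00699% over all genes) with 0 unadjusted. The log2 fold change was above 0 for 20 of the 35 and below 0 for 15, beside 51.2% above 0 over all genes, and its median was 0.009 beside 0.005 over all genes. For 26 of the 35 genes the 95% interval of the difference lay within 2-fold either way, beside 79.6% of all genes. It lay within 1.5-fold for 12 of the 35, a smaller share than the 7650 of all 14301 genes tested. Without Vil-Cre 5, limma called 0 of the 35 genes and 1 gene over all genes, and only Gbp3 had an unadjusted p under 0.05, with a log2 difference of 0.60 ± 0.23 (SE, limma, adjusted p = 1.00). For the unadjusted counts by DESeq2, by edgeR and without Vil-Cre 5, no share over all genes is given here. Fold changes on this scale understate those of genes with few reads, and a p that misses the threshold does not show that the genotypes are alike.

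**Figure D2:**
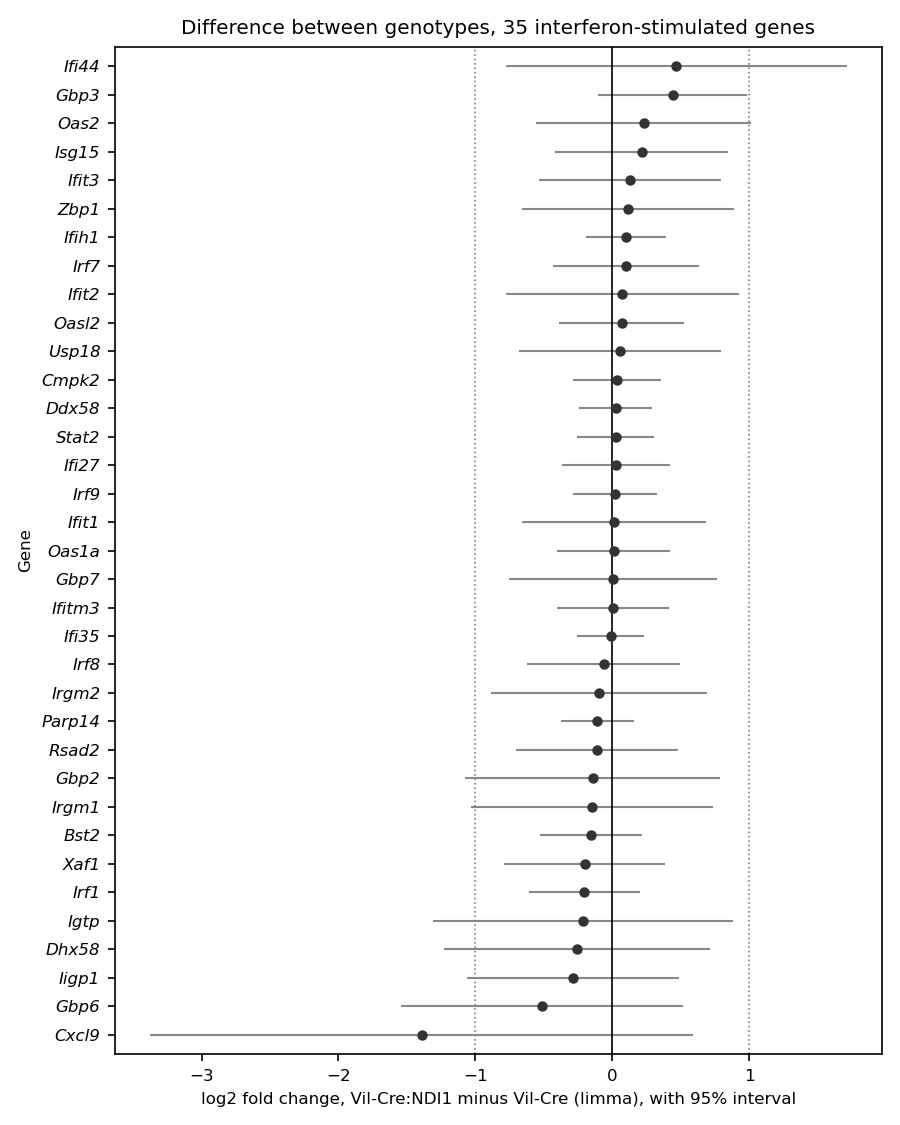
Log2 fold change between Vil-Cre:NDI1 and Vil-Cre mice for the 35 tested interferon-stimulated genes, with the 95% interval from limma. The solid line marks no difference and the dotted lines a 2-fold difference, and all 35 intervals cross the solid line, from Cxcl9 at -1.39 to Ifi44 at 0.47.

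Among the tested interferon-stimulated genes, the chemokine Cxcl9 gave the widest spread. Cxcl9 was at 5.61, 28.5, 8.01, 43.5 and 124 normalized counts in Vil-Cre mice 1 to 5 and at 16.7, 3.64, 0.968, 23.5 and 18.8 in Vil-Cre:NDI1 mice 1 to 5. Vil-Cre 5 stood far above the rest and Vil-Cre:NDI1 3 held a single read's worth, with the groups overlapping. The log2 fold change was -1.39 with a standard error of 0.91 (limma, adjusted p = 0.998). It was -0.81 without Vil-Cre 5 and -0.24 when Vil-Cre:NDI1 3 was also left out. This was the gene with an unadjusted p under 0.05 by DESeq2, where its adjusted p was 0.655. Cxcl10 did not pass the filter, with 3.28 to 9.10 normalized counts in Vil-Cre mice and 4.70 to 17.6 in Vil-Cre:NDI1 mice, and the groups overlapped.

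The interferon-inducible GTPases comprise the guanylate-binding proteins (Gbp) and the immunity-related GTPases Igtp, Irgm1, Irgm2 and Iigp1, which act on vacuoles that hold intracellular pathogens. Of 8 tested, 2 had a log2 fold change above 0 and 6 below, with a median of -0.15, and 0 were called. Vil-Cre 5, the highest mouse for most of them, enters these values, and the directions were not counted without that mouse. Igtp was at 166, 326, 319, 696 and 1015 normalized counts in Vil-Cre mice 1 to 5 and at 521, 325, 678, 339.8 and 147 in Vil-Cre:NDI1 mice 1 to 5. The groups overlapped, and the lowest mouse of all was Vil-Cre:NDI1 5. Its log2 fold change was -0.22 ± 0.50 (SE), and it was 0.10 without Vil-Cre 5. Gbp6 was at 49.5, 76.6, 71.1, 139.5 and 290.4 in Vil-Cre mice and at 97.0, 69.2, 108, 80.3 and 30.5 in Vil-Cre:NDI1 mice. Again Vil-Cre 5 was the highest and Vil-Cre:NDI1 5 the lowest. The log2 fold change of Gbp6 was -0.52 ± 0.47 (SE) with all mice and -0.14 without Vil-Cre 5.

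Gbp3 had the smallest p of the 35 genes. It was at 40.2, 46.0, 73.1, 71.8 and 97.1 in Vil-Cre mice and at 108, 87.5, 95.9, 69.5 and 70.4 in Vil-Cre:NDI1 mice, so that 3 control mice lay within the range of the other group. The difference was 0.44 ± 0.25 (SE) on the log2 scale (limma, adjusted p = 0.998). Iigp1 was at 47.1 to 69.1 in 4 Vil-Cre mice and at 156 in Vil-Cre 5, while Vil-Cre:NDI1 mice spanned 31.7 to 103. The log2 difference of Iigp1 was -0.29 ± 0.35 (SE). The second Gbp6 row (ENSMUSG00000079362) was at 0 in 9 mice and at 23.2 in Vil-Cre:NDI1 3. It shares 1726 bases of exon (40.0%) with the first row (ENSMUSG00000104713) and 1792 bases (41.6%) with Gbp10. Reads may therefore be split among these rows, and a count of 0 allows up to 3 reads.

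The antiviral effectors act on viral RNA, on nucleotides or on membranes. Of 10 tested, 8 had a log2 fold change above 0 and 2 below (Rsad2 and Bst2), with a median of 0.024, and 0 were called. Ifitm3, which blocks the fusion of viruses in endosomes, was at 243, 184, 223, 139 and 254 in Vil-Cre mice and at 217, 195, 240.1, 234 and 150.2 in Vil-Cre:NDI1 mice. The groups covered nearly the same range, and the log2 difference was 0.0039 with a 95% interval from -0.41 to 0.41. Ifit2, a protein with tetratricopeptide repeats that restrains viral RNA translation, was at 23.3 to 36.1 in 4 Vil-Cre mice and at 89.4 in Vil-Cre 5, and at 28.1 to 70.5 in Vil-Cre:NDI1 mice. Bst2, or tetherin, which holds budding virions at the cell surface, was at 90.6 to 130.1 in Vil-Cre and at 77.5 to 132 in Vil-Cre:NDI1 mice (log2 fold change -0.16 ± 0.17, SE).

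Isg15 encodes a ubiquitin-like modifier, and Usp18 encodes the protease that removes it and also dampens signalling from the type I interferon receptor. Isg15 was at 72.9, 115, 151, 114 and 181 in Vil-Cre mice and at 190.2, 137, 219.8, 98.9 and 97.4 in Vil-Cre:NDI1 mice. Usp18 was at 117, 140.1, 153, 153 and 243 in Vil-Cre mice and at 180.4, 162, 349.5, 142 and 77.5 in Vil-Cre:NDI1 mice. For both genes Vil-Cre:NDI1 3 was the highest of all mice, and the groups overlapped. The log2 fold changes were 0.21 ± 0.29 (SE) for Isg15 and 0.055 ± 0.34 (SE) for Usp18.

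Among the transcription factors, 3 of 5 had a log2 fold change above 0 and 0 were called. Irf1, which acts downstream of interferon-gamma, was at 1335, 1578, 1657, 1601 and 2258 in Vil-Cre mice and at 1783, 1159, 1814, 1633 and 1018 in Vil-Cre:NDI1 mice. Vil-Cre 5 was the highest and Vil-Cre:NDI1 5 the lowest, and the log2 difference was -0.20 ± 0.19 (SE). Irf8, a factor of myeloid and B cells that interferon-gamma also induces, was at 789 to 1100.1 in 4 Vil-Cre mice, at 2213 in Vil-Cre 5 and at 817 to 1371 in Vil-Cre:NDI1 mice. Its log2 difference was -0.064 ± 0.25 (SE), and it was 0.19 without Vil-Cre 5. The B cell marker Cd79a was at 315 in that same mouse against 9.85 to 53.9 in the others, and its part in the level of Irf8 was not tested. Irf7, the factor that amplifies type I interferon production, was at 775 to 1782 in Vil-Cre:NDI1 and at 835 to 1432 in Vil-Cre mice. Stat2 and Irf9, partners in the complex that binds the ISRE, varied less, with log2 differences of 0.024 ± 0.13 and 0.017 ± 0.14 (SE).

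The nucleic acid sensors included the RNA helicases Ifih1 (MDA5), Ddx58 (RIG-I) and Dhx58 (LGP2), together with Zbp1, which recognises Z-form nucleic acid. Of the 4, 3 had a log2 fold change above 0 and 0 were called. Ifih1 was at 887 to 1345 in Vil-Cre and at 973 to 1363 in Vil-Cre:NDI1 mice, a log2 difference of 0.10 ± 0.13 (SE). Dhx58 was at 46.7, 162, 162, 102 and 78.7 in Vil-Cre and at 109, 83.8, 198, 50.9 and 43.4 in Vil-Cre:NDI1 mice. The ranges of Dhx58 overlapped widely, and its difference was -0.26 ± 0.44 (SE) on the log2 scale.

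The other 5 genes had 2 log2 fold changes above 0 and 3 below, and 0 were called. Ifi35 gave the narrowest interval of all members, from -0.26 to 0.23 on the log2 scale, with 837 to 1197 normalized counts over the 10 mice. Parp14, a mono-ADP-ribosyltransferase, was at 1041 to 1650.1 in Vil-Cre and at 1177 to 1507 in Vil-Cre:NDI1 mice, with a log2 difference of -0.11 ± 0.12 (SE). Xaf1, a pro-apoptotic zinc finger protein, was at 85.4 to 128 in Vil-Cre mice, at 57.5 to 91.1 in 4 Vil-Cre:NDI1 mice and at 180.1 in Vil-Cre:NDI1 3. Ifi44 had the largest positive log2 difference of the 35, 0.47 ± 0.57 (SE), with normalized counts of 4.01 to 33.0 among Vil-Cre and 10.9 to 47.4 among Vil-Cre:NDI1 mice.

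Most of these genes spread more between mice of the same genotype than the median gene did. The SD of log2(normalized count + 1) within genotypes had a median of 0.47 over the 35 genes, beside 0.29 over all genes tested, and 27 of the 35 were above the median of all genes. In all 35 it was above the SD that counting alone would give, by 1.83 to 13.9 times. The share of all genes for which this held was not counted, so it is not shown to be particular to these genes. The GTPases spread most among role groups with more than 1 tested gene, with a median SD of 0.71, and 8 of 8 were above the median of all genes. Igtp spanned 6.92-fold from the lowest to the highest mouse, Gbp2 6.29-fold, Irgm1 5.00-fold and Gbp6 9.52-fold. In contrast, Ifi35 spanned 1.43-fold and Ifih1 1.54-fold. Without Vil-Cre 5, an alternative chosen after seeing the data, the median SD was 0.48 over the 35 genes, 0.55 over the GTPases and 0.28 over all genes, and 26 of 35 and 8 of 8 were above the median of all genes. The spread falls with the level over the whole transcriptome, as the plot of SD against level shows, and the comparison of medians does not adjust for level. With all mice, the median SD was 0.80 for T cell, 0.69 for B and plasma cell and 0.58 for macrophage and monocyte markers. For dendritic cell markers it was 0.57, for goblet and Paneth cell markers 0.53 and for adipocyte markers 2.19. Crypt proliferation markers were at 0.47, smooth muscle at 0.40, enterocytes at 0.29 and endothelium at 0.28. A wide spread is therefore not particular to the interferon-stimulated genes.

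**Figure D3:**
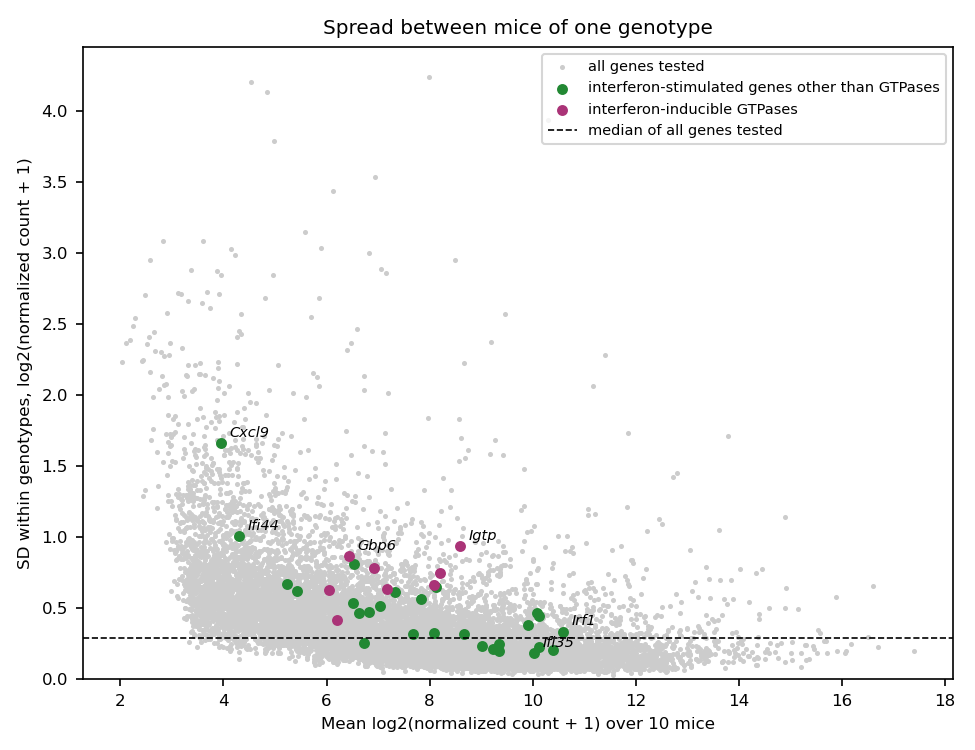
SD within genotypes against the mean of log2(normalized count + 1) over 10 mice, for all 14301 genes tested (grey), the GTPases (purple) and the other interferon-stimulated genes (green). The dashed line is the median of all genes (0.29), and the GTPases lie above it, with Igtp highest among them at 0.94.

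The highest and lowest values gathered in a few animals. Of the 35 genes, 15 were highest in Vil-Cre 5 and 15 in Vil-Cre:NDI1 3, together 30 of 35 (85.7%), whereas these 2 mice were the highest for 21.2% of all genes tested (13.5% and 7.64%). At the low end, 12 genes were lowest in Vil-Cre 1 and 11 in Vil-Cre:NDI1 5, together 65.7%, against 19.9% of all genes. Each pair holds 1 mouse of each genotype. Among the 9 mice other than Vil-Cre 5, Vil-Cre:NDI1 3 was the highest for 20 of the 35 genes (57.1%), against 8.82% of all genes, and for 3 of the 8 GTPases. These mice were singled out after the values were seen, the genes share their libraries, and the counts are a description with no test. The median log2 deviation of the 35 genes from the median mouse was 0.37 in Vil-Cre 5, 0.40 in Vil-Cre:NDI1 3, -0.39 in Vil-Cre 1 and -0.46 in Vil-Cre:NDI1 5.

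**Figure D4:**
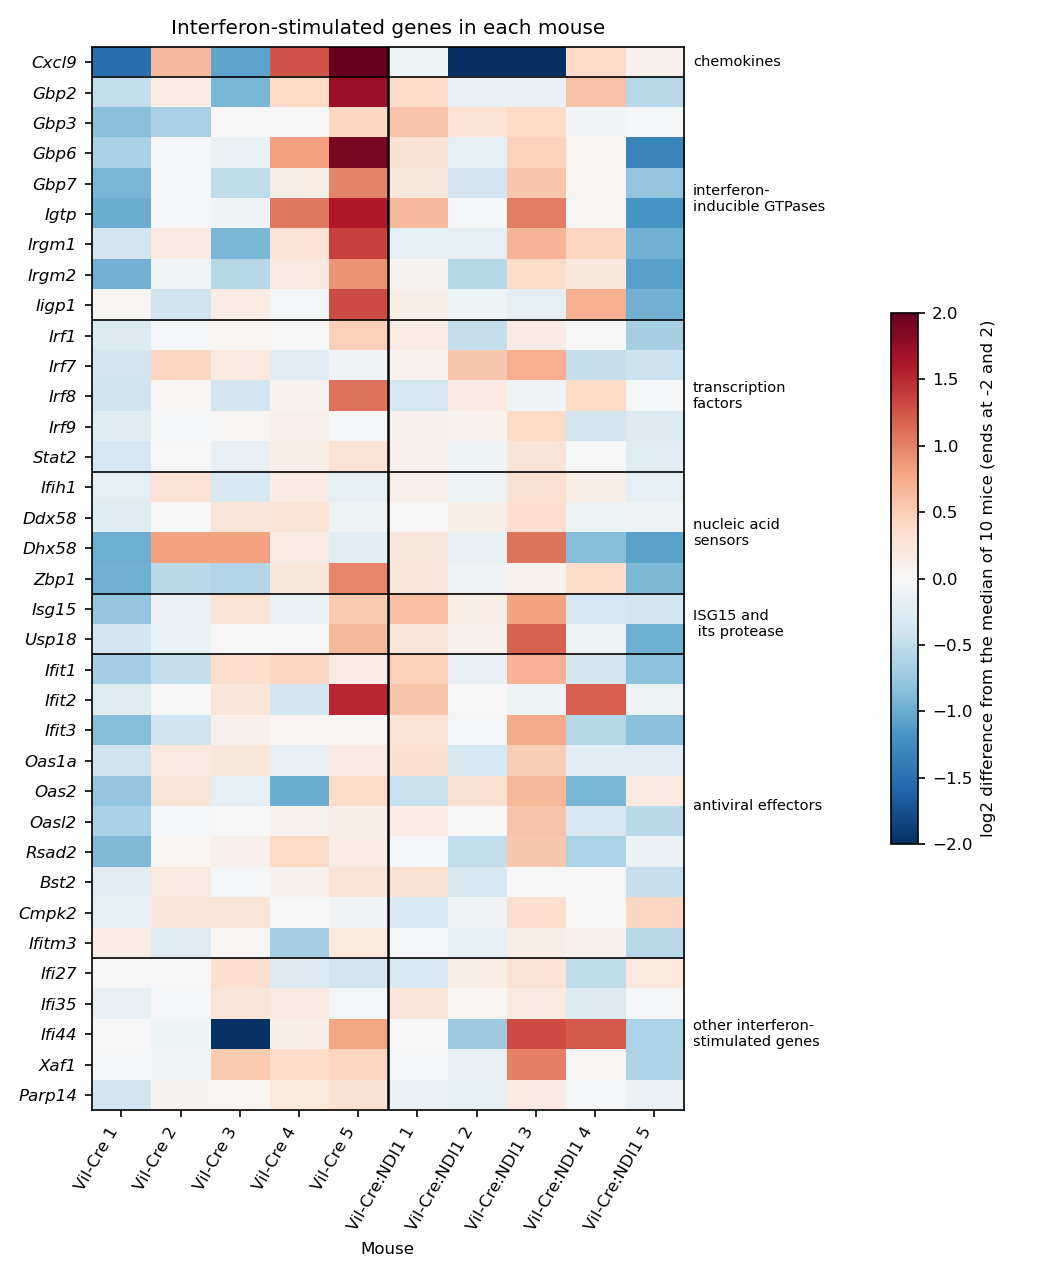
Log2 difference of each tested interferon-stimulated gene from its median over 10 mice, with genes in rows by role and mice in columns, and the colour scale ending at -2 and 2. Red blocks stand in the column of Vil-Cre 5 for the GTPases and in that of Vil-Cre:NDI1 3 for Isg15, Usp18 and most antiviral effectors, while Vil-Cre 1 and Vil-Cre:NDI1 5 are mostly blue.

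Each gene has a single highest mouse, so the genes led by Vil-Cre 5 and by Vil-Cre:NDI1 3 cannot overlap. Both mice were nevertheless raised for some of the same genes. The log2 deviation in Vil-Cre 5 was 0.52 for Isg15 and 0.66 for Usp18. In Vil-Cre:NDI1 3 it was 1.02 for Igtp and 0.68 for Irgm1, but -0.15 for Gbp2 and -0.18 for Iigp1. Vil-Cre 5 was the highest mouse for 7 of 8 GTPases, the exception being Gbp3, and the median deviation of the 8 was 1.33 on the log2 scale. It was also the highest for Irf1, Irf8, Stat2, Zbp1, Cxcl9 and Parp14, and for the antiviral effectors Ifit2 and Ifitm3. Irgm1 was at 734 in this mouse against 147 to 459 in the others, and Gbp2 was at 372 against 59.1 to 170.4. Vil-Cre:NDI1 3 was the highest for none of the GTPases, although their median deviation there was 0.43. It was the highest for 6 of 10 antiviral effectors, for Isg15 and Usp18, for Irf7 and Irf9 and for the 3 RNA helicases. Oasl2, a 2'-5'-oligoadenylate synthetase-like protein, was at 1489 in this mouse against 636 to 1113 in the others, and Irf7 was at 1782 against 775 to 1565. Cxcl9 did not follow these genes, being lowest in Vil-Cre:NDI1 3. The promoter matches shown above for Igtp, Irgm2, Gbp2 and Irf1 belong to the genes that led in Vil-Cre 5, and those of Isg15 and Ifit1 to genes that led in Vil-Cre:NDI1 3.

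**Figure D5:**
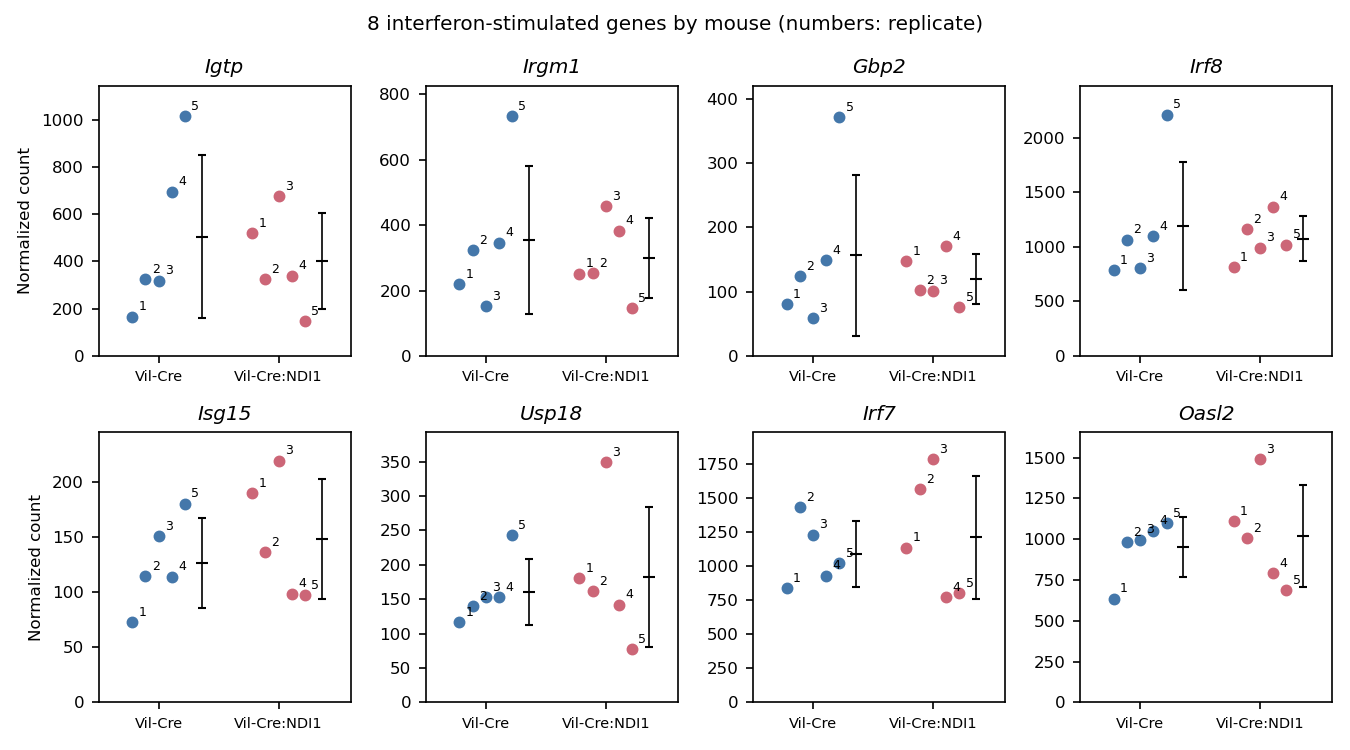
Normalized counts of 8 interferon-stimulated genes in each mouse, with the replicate number beside each point and the mean with SD (n = 5) as a black bar. Vil-Cre 5 is the highest mouse for Igtp, Irgm1, Gbp2 and Irf8, and Vil-Cre:NDI1 3 for Isg15, Usp18, Irf7 and Oasl2, and the genotypes overlap in every panel.

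Levels of cell type markers in these mice are given here, and their part in the result was not tested. The summed level of the 12 enterocyte markers was 398961 in Vil-Cre 5, the lowest of all mice (564619 to 673117 in Vil-Cre 1 to 4 and 593191 to 781173 in Vil-Cre:NDI1 mice), and 10 of the 12 were lowest in that mouse. The sum of 13 macrophage and monocyte markers was highest in Vil-Cre 5 at 1596 (599 to 1386 in the others). Of those markers, Lyz2 was at 759 in Vil-Cre 5 against 105 to 228 in the others, a gene singled out after its values were seen, and no other tested marker of the list was highest in that mouse. Within the list of B and plasma cell markers, genes of B cells stood out in Vil-Cre 5, and these too were singled out after their values were seen. Ms4a1 was at 236 in Vil-Cre 5 against 0 to 7.83 in the others, Cd79a at 315 against 9.85 to 53.9, and Cd79b at 258 against 2.90 to 23.5. The sum of the 8 markers of that list, which is mostly immunoglobulin of plasma cells, was 10505 in Vil-Cre 5 and within the range of the other mice (9100 to 35360). The sum of 16 T cell markers was 1310.2 in Vil-Cre 5 and 2168 in Vil-Cre:NDI1 3, within the range of the others (804 to 3881), and it was lowest in Vil-Cre:NDI1 5. The T cell marker Cd4 was nevertheless highest in Vil-Cre 5, at 72.8 against 8.20 to 44.5. No marker of these 4 lists was at 0 in every mouse. Between genotypes, all 12 enterocyte markers had a log2 fold change above 0 (0.11 to 0.61) and 11 of 12 tested macrophage markers one below 0. So did 14 of 15 tested T cell markers, 6 of 6 B and plasma cell markers, 8 of 9 goblet and Paneth cell markers, 4 of 5 dendritic cell markers and 6 of 7 smooth muscle markers, whereas 6 of 7 endothelial markers were above 0. Also above 0 were 6 of 8 crypt proliferation markers and 3 of 5 tested adipocyte markers. In all of these lists 0 markers were called. Vil-Cre 5 is part of these comparisons, so its low enterocyte and high B cell values enter the counts. The directions were not counted without that mouse, and its share in them was not tested.

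The wider interferon pathway was examined through 105 further named genes, of which 76 rows passed the filter. None was called by limma, 3 had an unadjusted p under 0.05 (4.24% of all genes did), and 39 had a log2 fold change above 0 and 37 below. Of 25 symbols for interferons and for the cytokines that induce or partner them, 19 were at 0 in every mouse, among them all type I interferon alpha genes, Ifnb1, Ifnl2 and Ifnl3. A count of 0 allows up to 3 reads in a library, or 2.73 to 3.52 normalized counts. Ifng reached at most 2 reads and Ifnk and Ifnz at most 4, so transcripts of the interferons were at or near the limit of detection at this depth. Il15 and Il18 were measured, at 151 to 271 and at 123 to 270.0 normalized counts.

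The receptors, by contrast, were expressed in every mouse. Ifngr2 was at 2174 to 3201 normalized counts, Ifngr1 at 1405 to 1995, Il10rb at 1119 to 2160.4, Ifnar1 at 752 to 963, Ifnlr1 at 283 to 439 and Ifnar2 at 115 to 354. Ifnlr1, the specific chain of the type III receptor, was at 302, 369.9, 439, 283 and 291 in Vil-Cre mice and at 395, 410.0, 374, 418 and 427 in Vil-Cre:NDI1 mice. Its log2 difference was 0.28 ± 0.12 (SE, limma, adjusted p = 0.998), and Vil-Cre 3 was the highest of all mice. Irf4, a factor of lymphocytes and plasma cells, had the smallest p of the pathway genes. It was at 28.1 to 87.4 in Vil-Cre mice, highest in Vil-Cre 5, and at 12.9 to 39.2 in Vil-Cre:NDI1 mice, a log2 difference of -1.17 ± 0.38 (SE, limma, adjusted p = 0.998).

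Oas3, which makes 2'-5'-oligoadenylates, was at 405 to 561 in Vil-Cre and at 462 to 855 in Vil-Cre:NDI1 mice, and its log2 difference was 0.37 ± 0.16 (SE, limma, adjusted p = 0.998). The kinase Tbk1, which phosphorylates IRF3, and the receptor chain Il10rb followed, at 0.18 ± 0.090 and 0.27 ± 0.15 (SE). Among 39 tested interferon-stimulated genes outside the 36, 24 (61.5%) were highest in Vil-Cre 5 or Vil-Cre:NDI1 3, with 15 in the former and 9 in the latter, and 24 were lowest in Vil-Cre 1 or Vil-Cre:NDI1 5, again beside 21.2% and 19.9% of all genes.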

How the data were processed

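RNA from the jejunum of 10 mice was sequenced single-end. The authors used trimGalore! for trimming, STAR for alignment to a GRCm38 genome that included NDI1, Salmon for gene assignment and DESeq2 for size factors, by which reads were divided, so the deposited values are a signal (normalized counts) rather than raw counts. Whole reads were recovered from the step of each library, and 100% of non-zero values were whole multiples of it within 0.01. Of 45707 rows, 45143 identifiers were found in GENCODE M21 (GRCm38), which gave positions and exon lengths. Upstream sequences are from RefSeq (GRCm38.p6). The number of per-sample columns left unused was 0. No replicates were duplicates, since the chi-square per gene between replicates was 13.2 to 61.9. Each library was a separate mouse, and no batch is given in the sources used here.

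Genotypes were compared with limma 3.58.1 (R 4.3.3, trended eBayes) on log2(value + 1), for genes that reached a value of 10 in 5 or more mice, with Benjamini-Hochberg adjustment over all genes tested and a threshold of 0.05. DESeq2 1.42.0 and edgeR 4.0.16 on the recovered reads called 31 and 1 genes. Alternatives were other pseudocounts, filters, a rescaling, limma settings, a replicate block and leaving out mice. Scripts were tested on simulated data. The members, gene lists and tests were chosen with earlier results of these data known. The genes named in full were those with the 10 smallest p, the highest level per kb and the largest SD of each role group, genes that did not pass the filter, the 5 pathway genes with the smallest p, and the interferon ligands and receptors. Others are named as examples chosen after their values were seen. Floors cover counting error only, whereas the 95% intervals come from the spread between mice in limma.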

Additional observations from a re-analysis of the deposited data

Results flagged for a closer look

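The 35 genes in 2 genotypes gave 70 groups of 5 values. Groups were flagged by a rule with a rate of 1 in 20, at which 3.5 of the 70 would be flagged. In 7 of the 70 groups, the highest or lowest mouse stood apart from the other 4 by more than 0.71 of the group's range. In Vil-Cre 5, this held for Ifit2 (89.4 normalized counts, with 23.3 to 36.1 in Vil-Cre 1 to 4), Usp18 (243 against 117 to 153), Irf8 (2213 against 789 to 1100.1), Gbp2 (372 against 59.1 to 149) and Iigp1 (156 against 47.1 to 69.1). In Vil-Cre 1, it held for Oasl2 at the low end (636 against 982 to 1097). In Vil-Cre:NDI1 3, it held for Xaf1 (180.1, with 57.5 to 91.1 in the rest of its group). The 5 genes of Vil-Cre 5 come from 1 library and are not independent of each other.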

How the results depend on the processing

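None of the interferon-stimulated genes was called in any of the 23 alternatives, in which the smallest adjusted p was 0.295 (Cxcl9, DESeq2 without Vil-Cre 3 and 4). The tests on reads without those 2 libraries, whose step is near 1, the fit without the 2 leading mice and the variation without Vil-Cre 5 were added after seeing the data. The number of all genes called was 2 with a minimum of 50, 2 with array weights, 31 with DESeq2, 276 with DESeq2 without Vil-Cre 3 and 4 (2 pathway genes, Irf4 and Tbk1) and 1 to 3 when leaving out each mouse. The cause was not tested. With libraries rescaled to equal totals, the genes lowest in Vil-Cre 1 went from 12 to 6 and those lowest in Vil-Cre:NDI1 5 from 11 to 19. The replicate numbers did not pair the mice (correlations from -0.12 to 0.14), and a replicate block left 1 gene and 0 members called.

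Several log2 differences turned in direction, none of them called. Rescaling gave -0.058 (Ifitm3) and -0.0068 (Usp18). Array weights gave 0.040 (Dhx58), 0.054 (Ifi35), 0.21 (Igtp) and 0.034 (Irf8). DESeq2 and edgeR gave -0.019 and -0.034 (Ifit2) and -0.0093 and -0.022 (Ifitm3). Without Vil-Cre 3 and 4 they gave 0.023 and 0.013 (Dhx58), 0.10 and 0.086 (Ifi35), -0.26 and -0.28 (Ifit2), -0.13 and -0.15 (Ifitm3) and 0.023 and 0.0050 (Xaf1). Without Vil-Cre 5 and Vil-Cre:NDI1 3, limma gave 0.010 (Iigp1), 0.21 (Irf8) and -0.062 (Usp18). Leaving out each mouse gave ranges of -0.13 to 0.11 (Ifitm3), -0.22 to 0.32 (Usp18), -0.066 to 0.063 (Ifi35), -0.55 to 0.10 (Igtp), -0.19 to 0.19 (Irf8) and -0.15 to 0.40 (Ifit2). The other 370 single-gene values kept their direction. A minimum of 50 leaves no value for genes below it, such as Cxcl9 and Ifi44.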
